A study of Arabidopsis thaliana with 15 samples.

Results

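Transcript levels in Arabidopsis thaliana wild-type leaves were compared between 10 h and 6 h after infiltration with bacteria that deliver the effector AvrRpt2. The comparison used the 6 arrays whose labels give Col-0 at 6 h (3 arrays) or Col-0 at 10 h (3 arrays), of 15 arrays in the series. The 3 Col-0 arrays at 0 h entered the same fit, to give where each gene stood before 6 h. The other 6 arrays, of the rps2 mutant at 0 and 10 h, were used only for the control probe sets and in alternative fits.

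All groups were mature leaves of plants about 4 weeks old, grown on soil in equal periods of light and dark. Each received the same inoculum of Pseudomonas syringae pv. maculicola (Psm) with AvrRpt2, and the 3 arrays of a group are labelled as biological replicates. The labels name no mock infiltration and no clock time, so the effect of the bacteria, of infiltration and of the hour of day cannot be told apart in a difference between times. They give no number of plants or leaves in a replicate. A leaf is a mixture of cells, and fewer cells of a type and less RNA per cell cannot be told apart either.

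AvrRpt2 is a protease that cleaves the plant protein RIN4. The resistance protein RPS2 senses that loss and starts effector-triggered immunity, which in leaves of Col-0 leads through calcium influx and salicylic acid to broad reprogramming of transcription and often to local cell death. Defence genes are switched on in this response while photosynthesis and growth genes are turned down, and the hours after the first wave show which of these programmes run on.

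The deposited values are log2 differences from each probe set's own median over the 15 arrays, so they carry no absolute level and no value of one gene can be set against that of another. A change given below is the fitted log2 difference with its standard error (SE), and a change was called at an adjusted p of at most 0.05 in limma's moderated test over 22746 probe sets. Within the 6 h and within the 10 h group, 2 arrays differed by an SD over probe sets of 0.178 to 0.25, while a 6 h and a 10 h array differed by 0.638 to 0.714. The 10 h arrays stood apart in their spike-ins. Poly-A spike-ins are bacterial transcripts added to an RNA sample before labelling. Their 24 probe sets averaged 0.92, 1.13 and 0.90 on the 10 h arrays of Col-0 and -0.09, -0.32 and 0.01 on the 6 h arrays, and the highest of the 12 arrays other than Col-0 at 10 h was 0.12. The difference between 10 h and 6 h was 1.12, and it ran from 1.02 for thr to 1.18 for lys among the 4 spiked transcripts. Hybridisation controls, which enter after labelling, were higher at 10 h than at 6 h by 0.38 (bioC, bioD and cre) and 0.67 (bioB), and the 25S rRNA probe set by 0.53. For bioC, bioD and cre and for 25S rRNA the 6 h arrays were themselves low, at -0.25 and -0.65 against 0 h. The difference between 3′ and 5′ probe sets moved by -0.03 for actin, 0.15 for GAPDH and -0.06 for ubiquitin. The labels do not give the amount of spike-in added or whether the 10 h arrays were handled apart, and their part in the changes below was not tested. Each list of genes was therefore also measured after centring every array on its poly-A spike-ins (the poly-A scale) and after a repeated quantile normalisation. The median change of all probe sets from 6 to 10 h was then -1.10 on the poly-A scale, where it was 0.01 on the deposited scale. The repeated normalisation was run on the deposited differences from the median and gives each Col-0 array the same spread. The deposited values had an SD over probe sets of 0.742 to 0.787 at 6 h and 1.07 to 1.13 at 10 h.

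**Figure D1:**
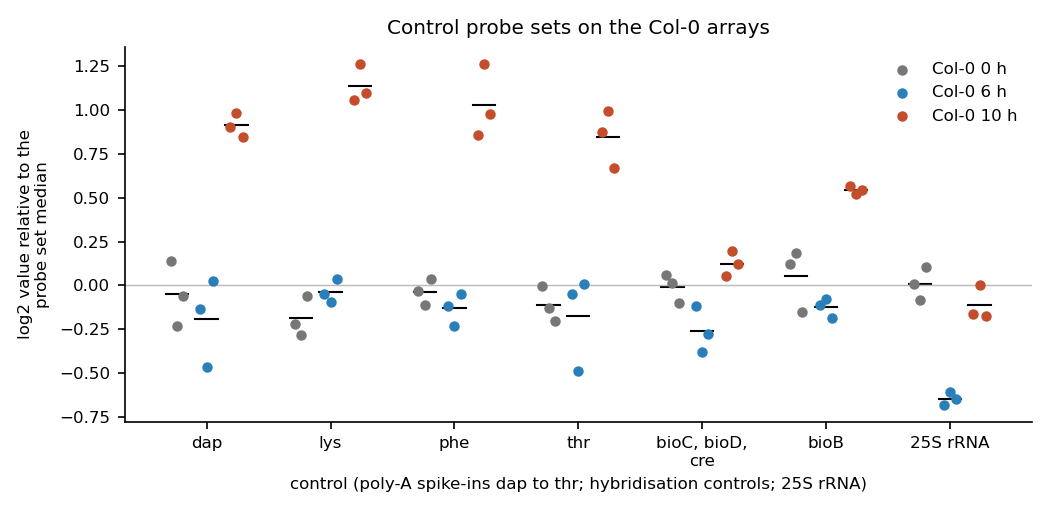
Log2 values (vertical axis, relative to each probe set's median over 15 arrays) of the poly-A spike-ins dap, lys, phe and thr, the hybridisation controls and 25S rRNA (horizontal axis) on the Col-0 arrays. Points are arrays and lines are group means; for each spike-in all 3 arrays at 10 h lie above all arrays at 0 h and 6 h.

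Between 6 and 10 h, 4051 probe sets rose (17.8% of those tested) and 5575 fell (24.5%), 42.3% in all. The counts of each list below stand beside these shares, with no test against them. By 6 h, 6221 had already risen against 0 h (27.3%) and 7183 had fallen (31.6%), 58.9% in all. Since both steps use the 6 h arrays, an error in those arrays moves them in opposite ways, and the steps are set side by side with no test of their relation. Genes called at both steps in one direction are said to have advanced, and genes called in opposite directions to have turned back. A gene called at 6 h but not from 6 to 10 h, with a 95% interval of the later change within 1.5-fold of none, is said to have stalled, and one called only in the later step changed late. Of the probe sets that had risen by 6 h, 33.0% advanced (2052), 35.9% stalled (2232) and 29.3% turned back (1821). Of those that had fallen, 41.5% advanced (2983), 44.5% stalled (3199) and 10.4% turned back (748). Late changes were 1251 rises (5.5%) and 771 falls (3.39%). These shares rest on the scale. On the poly-A scale 663 probe sets were called higher (2.91%) and 21211 lower (93.3%), 457 had risen and rose further, and 4847 had risen and turned back. After repeated quantile normalisation 3713 were higher (16.3%) and 4600 lower (20.2%), and of the probe sets that had fallen by 6 h 1442 fell further and 1607 rose again. Of those that had risen, 1348 rose further and 2624 turned back. The order of further and turned-back changes was thus opposite to the deposited scale among both falls and rises. In a fit of all 15 arrays the calls of 17 genes named below were lost, with the same changes and wider errors: CRR41, ATSPS4F, PUB23, PUB24, WRKY6, JRG21, MYC3, CCR2, UGT76E12, GTR1, GRX480, ATERDJ3B, SAG101, APS4, EXPA8, BZIP28 and BZIP60. Without rps2 10 h replicate 3 the only one of these calls lost was that of BZIP60.

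**Figure D2:**
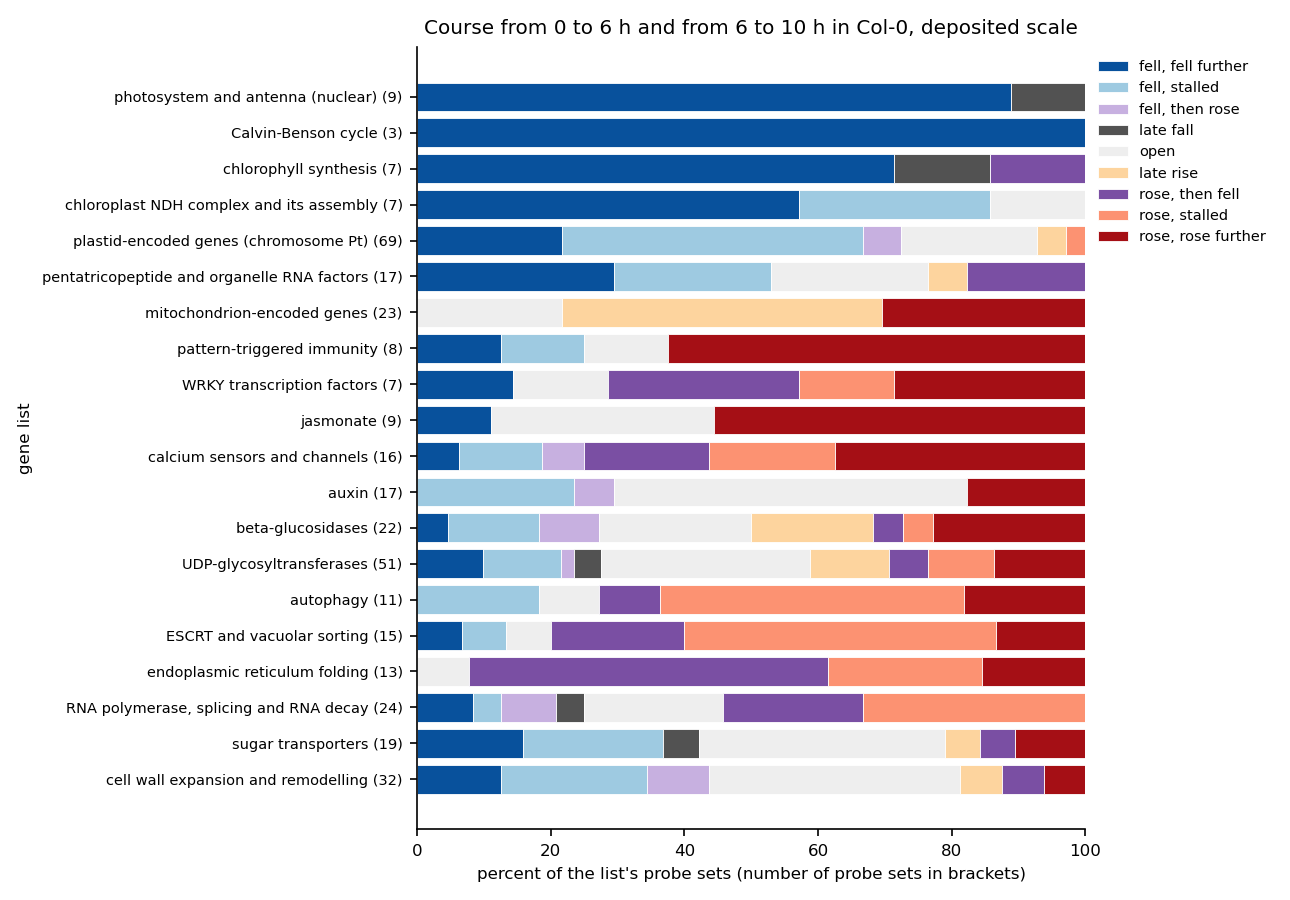
Share of each list's probe sets (horizontal axis, percent) that followed each course from 0 to 6 h and from 6 to 10 h in Col-0 on the deposited scale; the vertical axis names the lists with their number of probe sets. The photosystem list is almost all further falls, endoplasmic reticulum folding is mostly rises that turned back and mitochondrion-encoded genes are mostly late or further rises; on the poly-A scale 4 of the 23 mitochondrial probe sets are called higher from 6 to 10 h and 10 lower.

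Photosynthesis and the making of chlorophyll were the functions that advanced furthest downward. All 9 nuclear probe sets of the photosystems, their antenna and the chloroplast ATP synthase fell from 6 to 10 h, with a median of -1.97. At 6 h 8 of the 9 had fallen, with a median of -1.13, so the later step was larger than the earlier one. LHCB4.2, a form of the antenna protein CP29 that links light harvesting to photosystem II, stood at -0.44, -0.49 and -0.25 at 6 h and at -4.81, -4.60 and -4.09 at 10 h. The groups are far apart, and the change of -4.11 ± 0.15 (limma adjusted p = 1.2e-09) was the largest fall of any probe set with a single gene. At 6 h LHCB4.2 had changed by -2.79. PSAN, a subunit of photosystem I on its lumenal side, changed by -2.69 ± 0.13 after -2.04. PSAE-1, a photosystem I subunit on the stromal side, changed by -2.05 ± 0.08 after only -0.77 in the first 6 h. LHCB4.1 and LHCB4.3, the other CP29 forms measured, changed by -1.97 ± 0.09 and -1.22 ± 0.13, and LHCB4.3 is named here to complete the family, after its values were seen. All 9 were also called lower with the arrays centred on the spike-ins (median -3.08) and after repeated quantile normalisation (-1.43). Of all probe sets, 93.3% and 20.2% were called lower on those scales.

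The enzymes that build chlorophyll followed. All 7 probe sets fell from 6 to 10 h, with a median of -1.15, and 5 of them had fallen by 6 h. PORB, the light-dependent enzyme that reduces protochlorophyllide, stood at -1.04, -0.82 and -0.86 at 6 h and at -3.06, -3.53 and -3.75 at 10 h. Its change of -2.54 ± 0.14 came after -3.77 by 6 h, and no 10 h array reached the 6 h range. CHLI2, a subunit of magnesium chelatase, changed by -1.47 ± 0.09 and CHLM, which methylates magnesium protoporphyrin, by -1.15 ± 0.10. GSA1, an early enzyme of the pathway, had risen by 0.27 at 6 h and then turned back by -0.35 ± 0.09. NOL, a chlorophyll b reductase and thus an enzyme of chlorophyll breakdown, fell as well, by 1.11 ± 0.12. The 3 measured members of the Calvin-Benson cycle fell further. PRK, phosphoribulokinase, stood at -2.58, -2.41 and -2.13 at 6 h and at -4.09, -3.85 and -3.66 at 10 h, a change of -1.49 ± 0.13. SBPASE, which regenerates the carbon acceptor, changed by -1.47 ± 0.12 and RCA, the activase of Rubisco, by -1.87 ± 0.08. TRXF2, a thioredoxin that activates enzymes of that cycle in the light, changed by -1.66 ± 0.09. Each of the falls named in this group was called on the poly-A scale and after repeated quantile normalisation too. Those scales called 93.3% and 20.2% of all probe sets lower, so a call on the first adds little.

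The chloroplast NADH dehydrogenase-like complex, which returns electrons to the chain around photosystem I, behaved less evenly. Its 7 nuclear probe sets, for subunits and other factors that the complex needs, had all fallen by 6 h, with a median of -3.32. From 6 to 10 h 4 of them fell further and 3 did not pass the test. The subunits NdhS and NdhL changed by -1.75 ± 0.15 and -1.36 ± 0.13. The assembly factors CRR41 and CRR42 changed by -0.66 ± 0.14 and -0.62 ± 0.15. The list's median was -0.62, but 0.03 after repeated quantile normalisation, where CRR42 turned to 0.39 and CRR41 no longer passed (-0.20), and it was -1.73 on the poly-A scale.

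Single genes of starch, cold acclimation, the clock and growth also fell further, while their lists went both ways. Of 6 starch and sugar metabolism probe sets 2 rose and 2 fell, with a median of 0.02. SBE2.2, a starch branching enzyme, changed by -1.45 ± 0.09 after -2.10, and DPE1, which acts in starch breakdown, by -1.01 ± 0.11 after -3.94. DPE1 did not pass after repeated quantile normalisation (-0.14). AMY1, an alpha-amylase, rose by 0.85 ± 0.12 (-0.26 on the poly-A scale). Of 11 cold and dehydration probe sets 2 rose and 5 fell, with a median of 0.08, where 17.8% and 24.5% of all probe sets did. COR15A, a chloroplast protein of cold acclimation, stood at 0.01, 0.15 and 0.23 at 6 h and at -2.15, -2.69 and -2.55 at 10 h. This change of -2.59 ± 0.12 was larger than the earlier one of -0.76, while its near copy COR15B changed by -1.93 ± 0.09 after -2.78. The risers were LEA4-5, of the late embryogenesis abundant proteins, by 1.76 ± 0.19 and AT2G46140 by 1.16 ± 0.09, the latter not called on the poly-A scale (0.04) or after repeated quantile normalisation (0.16). GI (GIGANTEA), a clock gene whose level follows the hour of day, changed by -1.77 ± 0.10 after -1.80 and was the only one of 3 clock probe sets called. TUB5, a beta-tubulin, changed by -1.33 ± 0.10 after -4.53, and EXPA8, an expansin that loosens cell walls, by -1.33 ± 0.13 after -5.42. BCAT4, the aminotransferase at the entry to methionine-derived glucosinolates, changed by -1.79 ± 0.18 after -3.46. The 2 measured glucosinolate transporters went the other way, with GTR1 at 1.90 ± 0.14 and GTR2 at 1.12 ± 0.11.

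**Figure D3:**
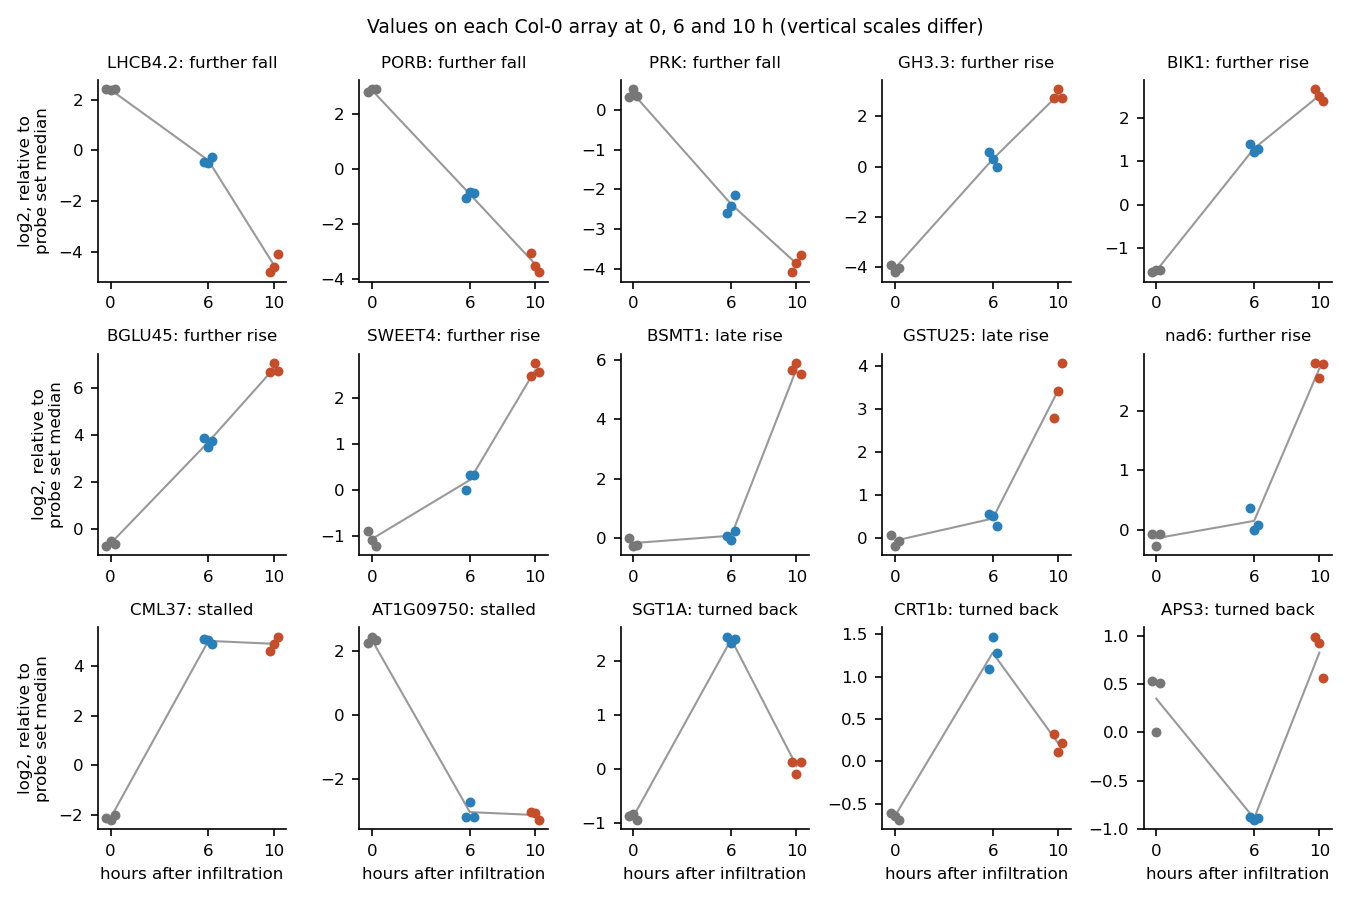
Log2 value relative to the probe set's median (vertical axes, scales differ) against hours after infiltration (horizontal axis) for 15 genes on each Col-0 array; points are arrays, the line joins group means and each title gives the course on the deposited scale. LHCB4.2 drops below -4 by 10 h and BSMT1 stays near 0 until 6 h; CML37 is called lower and AT1G09750 called higher after repeated quantile normalisation, and the later rise of BIK1 is not called on the poly-A scale.

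Among defence genes, 5 members of the pattern-triggered list rose further on the deposited scale. Of its 8 probe sets of pattern-triggered immunity, the response to microbial surface patterns, 6 had risen by 6 h. In the next step 5 rose and 1 fell, with a median of 0.57. BIK1, the cytoplasmic kinase that relays signals from several pattern receptors, stood at 1.40, 1.22 and 1.28 at 6 h and at 2.66, 2.50 and 2.38 at 10 h. Its groups do not overlap, and the rise of 1.22 ± 0.09 came after 2.81. PUB22, PUB23 and PUB24, ubiquitin ligases that dampen this response, rose by 1.18 ± 0.18, 1.12 ± 0.11 and 0.85 ± 0.09 after 2.61, 4.61 and 4.00. The list's median was -0.55 on the poly-A scale, where BIK1, PUB22 and PUB23 did not pass (0.10, 0.06 and 0.01) and PUB24 turned to -0.26. The 3 members that did not rise are named after their values were seen. EFR, a pattern receptor, had risen by 1.80 and changed by -0.44 ± 0.17, not called here. It was called lower with only the 6 arrays at 6 h and 10 h, and with trended and robust variance. The same held without 0 h replicate 1 or 2 or 10 h replicate 1, and on both other scales. The fit of all arrays but rps2 10 h replicate 3 called it lower too. The mitogen-activated protein kinases ATMPK8 and ATMPK13 changed by -0.58 ± 0.08 and by -0.06 ± 0.11, the second not called. They are in the list by the match of their names, and their part in this response was not tested. After repeated quantile normalisation the median was 0.25 and PUB22 did not pass (0.42).

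WRKY transcription factors, which bind W-box elements in defence genes, split. Of 7 probe sets, 5 had risen by 6 h. Afterwards 2 rose and 3 fell, with a median of -0.14. WRKY22, which acts downstream of pattern receptors, stood at 0.00, 0.00 and -0.23 at 6 h and at 1.87, 2.02 and 2.04 at 10 h, a rise of 2.06 ± 0.09 after 1.60. WRKY6, a factor also linked to senescence, rose by 1.32 ± 0.11 after 4.33, but was not called on the poly-A scale (0.21). WRKY42 and WRKY47 turned back. WRKY42 stood at 1.52, 1.91 and 1.24 at 6 h and at 0.62, 0.77 and 0.54 at 10 h, which gives -0.91 ± 0.14 after 1.57. WRKY47 changed by -0.64 ± 0.17 after 2.27.

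In the salicylic and pipecolic acid list 1 of 5 probe sets rose late, that of BSMT1. BSMT1 transfers a methyl group to salicylic and benzoic acid and so makes volatile esters. Its arrays read 0.08, -0.07 and 0.26 at 6 h and 5.65, 5.90 and 5.53 at 10 h. At 6 h it had not been called (0.25), and the later rise of 5.60 ± 0.12 (limma adjusted p = 6.2e-11) also stood at 4.49 on the poly-A scale. UGT76B1, a glycosyltransferase that acts on defence signals of this pathway, had risen by 8.54 at 6 h. It stood at 1.5, 1.28 and 1.27 at 6 h and at 1.17, 1.17 and 0.98 at 10 h. The change of -0.24 did not pass the test on this scale, and it was called lower on the poly-A scale (-1.36) and after repeated quantile normalisation (-0.59). GRX480, a glutaredoxin that binds TGA factors, rose by 0.69 ± 0.14 after 5.82, but turned to -0.43 on the poly-A scale. SAG101, a partner of EDS1 in immune signalling, turned back by -0.47 ± 0.11 after 2.83. Over the list of 5 probe sets, 2 rose and 1 fell, with a median of 0.16.

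Of 9 jasmonate probe sets, 5 rose from 6 to 10 h and 1 fell, where 17.8% and 24.5% of all probe sets did. The median was 0.57 (-0.54 on the poly-A scale). JMT, which methylates jasmonic acid as BSMT1 does salicylic acid, stood at 0.00, 0.48 and 0.05 at 6 h and at 3.45, 3.42 and 3.22 at 10 h. Its rise of 3.19 ± 0.15 followed one of 0.71. JRG21, named as a jasmonate-regulated gene, rose by 2.34 ± 0.38 after 4.71, and LCR67, a defensin-like peptide, by 2.51 ± 0.35 after 1.54. LCR67 varied within groups, at 1.37, 1.84 and 0.55 at 6 h and 3.79, 2.97 and 4.53 at 10 h, with no overlap. MYC3, a transcription factor of the jasmonate pathway, rose by 0.60 ± 0.10, but turned to -0.51 on the poly-A scale. The members that did not rise are named after their values were seen and were not followed in the alternative fits. MYC4 changed by -0.48 ± 0.12 after -1.25. The defensin genes PDF1.2, PDF1.2b and PDF1.4 changed by -0.02, 0.21 and -0.48, none of them called. In the auxin list 4 of 17 probe sets rose and 0 fell by limma's test, with 5 higher and 0 lower at an unadjusted p under 0.05. The count of rises is near the 17.8% of all probe sets that rose by the adjusted test, while 24.5% fell. The list's median was 0.11 (-1.01 on the poly-A scale, where 1 was called higher and 15 lower). Of all probe sets, 2.91% were called higher and 93.3% lower on that scale. GH3.3, which joins auxin and jasmonate to amino acids, stood at 0.58, 0.30 and 0.00 at 6 h and at 2.73, 3.09 and 2.75 at 10 h, a rise of 2.56 ± 0.15 after 4.36. IAA18, a repressor of auxin-responsive genes, rose by 1.37 ± 0.10 and was not called on the poly-A scale (0.26).

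Among enzymes that remove sugars and build phenolic walls, some genes rose steeply in both steps. Of 22 beta-glucosidase probe sets 11 rose from 6 to 10 h and 2 fell, where 17.8% and 24.5% of all probe sets did. The median was 0.28 (-0.83 on the poly-A scale). By 6 h 7 had risen, and 5 of these rose further, where 33.0% of all probe sets risen by 6 h did. BGLU45 and BGLU46 release the lignin precursors that are stored as glucosides. BGLU45 stood at 3.86, 3.49 and 3.73 at 6 h and at 6.65, 7.05 and 6.69 at 10 h, and its rise of 3.11 ± 0.13 followed one of 4.32. BGLU46 rose by 2.89 ± 0.21 after 2.93. BGLU27 rose most in the family, by 5.11 ± 0.24 after 1.97, from 1.19, 0.77 and 1.97 at 6 h to 6.35, 6.71 and 6.20 at 10 h. CCR2, a cinnamoyl-CoA reductase of the lignin branch, rose by 1.66 ± 0.14 after 4.66, and PRX52, a cell-wall peroxidase, by 2.42 ± 0.11 after 4.91. Over the 6 probe sets of phenylpropanoid and lignin genes, 3 rose and 0 fell by limma's test, also at an unadjusted p under 0.05. They had a median of 0.88. With the arrays centred on the spike-ins this became -0.23, and 3 were called higher and 3 lower.

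UDP-glycosyltransferases, which attach sugars to hormones and defence compounds, were mixed, with 14 of 51 probe sets higher, 10 lower and a median of 0.16 (-0.95 on the poly-A scale). Of all probe sets 17.8% were higher and 24.5% lower. By 6 h 17 of the 51 had risen, and 7 of these rose further, where 33.0% of all probe sets risen by 6 h did. UGT73C7 stood at 1.27, 1.43 and 1.08 at 6 h and at 5.09, 4.88 and 5.33 at 10 h, a rise of 3.84 ± 0.13. UGT73B4 rose by 3.29 ± 0.10 and UGT76E12 by 3.08 ± 0.09, after 2.36 and 4.71. UGT71B5 was late, with 0.31 by 6 h, not called, and then 3.51 ± 0.14. GSTU25, a glutathione transferase, was late too and rose by 2.97 ± 0.24.

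Calcium sensors and channels advanced, stalled and turned back in both directions. By 6 h 12 of 16 probe sets had risen and 4 had fallen, with a median of 2.08, so no change could be late by the rule. From 6 to 10 h 7 rose and 4 fell, and the median of 0.07 became -0.17 after repeated quantile normalisation, against -1.04 on the poly-A scale. The calmodulin-like protein CML23 stood at 0.49, 0.65 and 0.18 at 6 h and at 2.75, 3.51 and 3.67 at 10 h, a rise of 2.87 ± 0.22 after 0.91. AT1G76640, listed with the synonym CML39, rose by 3.88 ± 0.13 after 2.02. CML37 had risen by 7.13 at 6 h and stalled at -0.12 ± 0.13, although it fell by 1.23 on the poly-A scale and by 1.41 after repeated quantile normalisation. CML38 rose by 1.20 ± 0.15 on the deposited scale, with -0.05 after repeated quantile normalisation against 0.09 on the poly-A scale, neither of them called. GLR2.7 and GLR2.9, glutamate receptor-like channels, turned back by -1.19 ± 0.10 and -0.63 ± 0.16 after 2.14 and 2.76. In the sugar transporter list 3 of 19 probe sets rose and 5 fell, near the shares of all probe sets (17.8% and 24.5%). SWEET4 and SWEET2, sugar transporters of the SWEET family, rose by 2.39 ± 0.12 and 1.56 ± 0.12, while TMT1, a sugar carrier of the vacuole, fell by 0.64 ± 0.09.

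**Figure D4:**
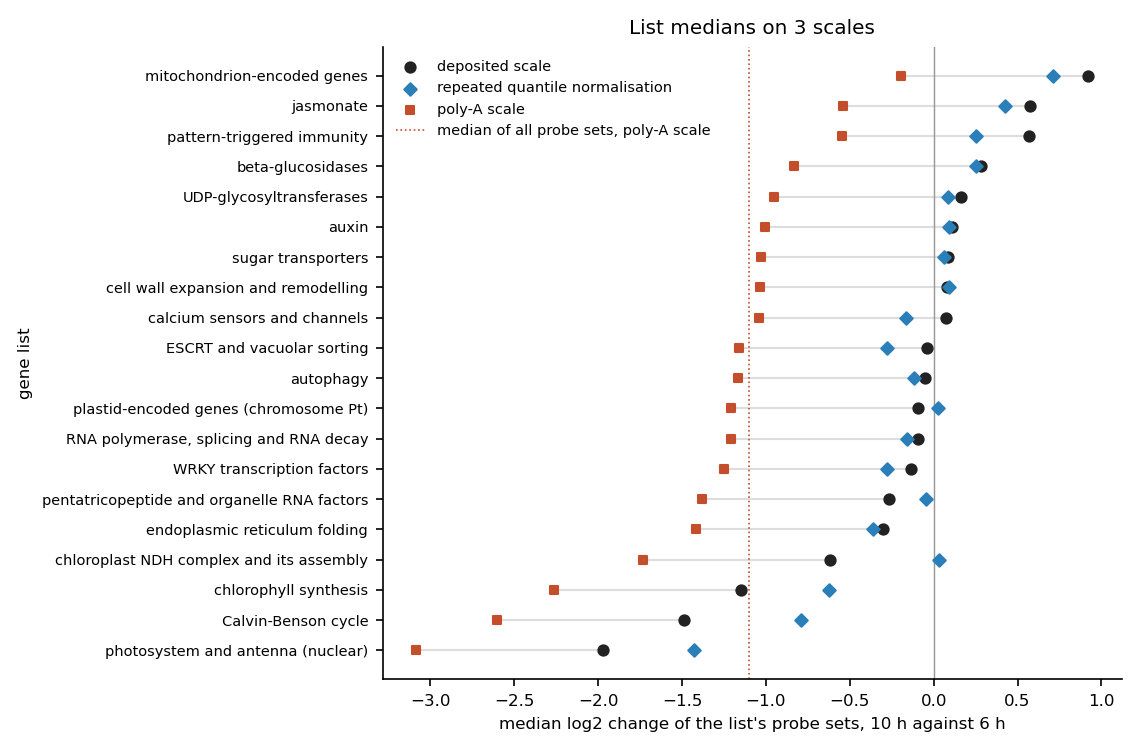
Median log2 change from 6 to 10 h (horizontal axis) of the probe sets of 20 lists (vertical axis) on the deposited scale, on the poly-A scale and after repeated quantile normalisation; the dotted line is the median of all probe sets on the poly-A scale. Photosystem, Calvin-Benson and chlorophyll lists are below 0 on all 3 scales, the mitochondrial, jasmonate and pattern-triggered lists are above 0 on the deposited scale and after repeated quantile normalisation and below 0 on the poly-A scale, and the NADH dehydrogenase-like complex, plastid-encoded and calcium lists differ in sign between the deposited scale and the repeated quantile normalisation.

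Most probe sets for transcripts encoded in the mitochondrion rose between 6 and 10 h on the deposited scale. The array holds 23 single-gene probe sets for 16 of these genes, and some genes have several probe sets, which are not independent. By 6 h 7 had risen, with a median of 0.14. From 6 to 10 h 18 rose and 0 fell by limma's test, and 19 and 0 at an unadjusted p under 0.05, with a median of 0.92. Of the 18, 11 were late (5.5% of all probe sets were late rises) and 7 advanced (9.02%). After repeated quantile normalisation 18 were again called higher, while on the poly-A scale 4 were higher and 10 lower, with a median of -0.19 that lay above the -1.10 of all probe sets. By role, 11 of the 15 probe sets for nad subunits of complex I rose, both for cox subunits of cytochrome c oxidase and all 4 for the cytochrome c maturation genes (ccb). The nad6 probe set stood at 0.38, 0.00 and 0.08 at 6 h and at 2.80, 2.54 and 2.78 at 10 h, and its rise of 2.56 ± 0.11 stood at 1.44 on the poly-A scale. The cox2 probe set rose by 1.84 ± 0.13 after 1.46, that of nad4L by 1.70 ± 0.09 and that of nad9 by 1.61 ± 0.11. SDH1-1, a nuclear-encoded subunit of succinate dehydrogenase in the same membrane, rose by 1.28 ± 0.09 after 0.92, and was not called on the poly-A scale (0.16). How far transcripts without a long poly-A tail enter the labelled RNA on each array was not measured.

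Among genes encoded in the plastid, a stalled fall was the most frequent course on the deposited scale. Of 69 probe sets, 53 had fallen by 6 h, with a median of -0.52. From 6 to 10 h 7 rose, 15 fell and 47 did not pass the test, with a median of -0.10. Of the 53, 31 met the rule for a stalled fall, where 44.5% of all probe sets fallen by 6 h did. On the poly-A scale all 69 were called lower, as were 93.3% of all probe sets, with a median of -1.21. After repeated quantile normalisation 11 were called higher and 0 lower, with a median of 0.02. The 4 subunits of the plastid RNA polymerase and the 6 of the ATP synthase held 0 called changes by limma's test, and 0 and 1 at an unadjusted p under 0.05. Among ribosomal proteins 5 of 15 fell, with rpl33 at -0.91 ± 0.10. The photosystem II core protein gene psbC changed by -0.68 ± 0.13, and petN, a small subunit of the cytochrome b6f complex, by 0.70 ± 0.13. The petN change turned to -0.41 on the poly-A scale, and those of rpl33 and psbC were not called after repeated quantile normalisation (-0.14 and -0.42). The nuclear genes of the photosystems, with a median of -1.97, and the plastid genes that encode their partner subunits therefore had different values over the same hours, a difference that was not tested.

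**Figure D5:**
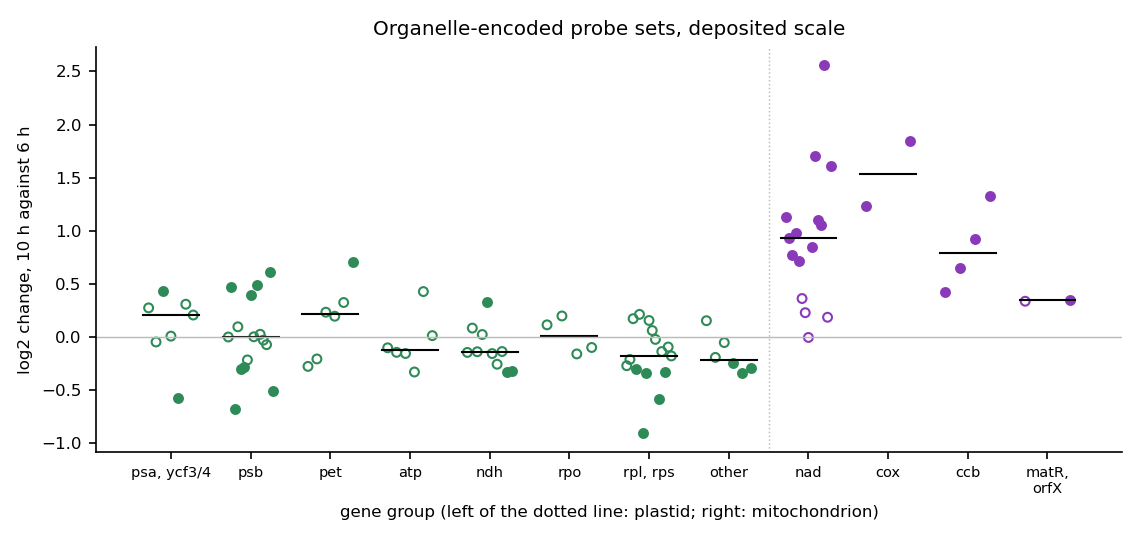
Log2 change from 6 to 10 h on the deposited scale (vertical axis) of each organelle-encoded probe set, grouped by gene family (horizontal axis; plastid to the left of the dotted line, mitochondrion to the right). Filled points were called, open points were not and lines are medians; all mitochondrial changes called here are above 0, and 4 of these 23 probe sets are called higher and 10 lower on the poly-A scale.

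In membrane traffic and self-digestion a part of the rises stalled after 6 h, and 35.9% of all probe sets risen by 6 h did so. Of 15 probe sets of the ESCRT machinery and vacuolar sorting, which carries membrane proteins to the vacuole, 12 had risen by 6 h with a median of 1.12. Over the next hours 2 rose, 4 fell and 7 met the rule for a stalled rise (9.81% of all probe sets did). The median was -0.04, and -0.28 after repeated quantile normalisation, against -1.16 on the poly-A scale. ELC, an ESCRT subunit that binds ubiquitin, rose by 0.65 ± 0.09 (-0.47 on the poly-A scale), and VPS46.2, a subunit that acts late in the same machinery, turned back by -0.48 ± 0.08 after 1.12. Of 10 exocytosis probe sets that had risen by 6 h, 4 stalled. Of 11 autophagy probe sets 8 had risen by 6 h, and 5 of these stalled. ATG8H and ATG8E, which coat the forming autophagosome, rose by 1.18 ± 0.10 and 0.76 ± 0.15, against 0.06 (not called) and -0.36 on the poly-A scale. The stalled gene with the largest earlier rise was AT3G01830, at 7.83 by 6 h and 0.19 ± 0.10 after it, although it turned to -0.44 after repeated quantile normalisation, and to -0.92 on the poly-A scale. The stalled gene with the largest earlier fall was AT1G09750, at -5.37 and then -0.09 ± 0.13, which became 1.08 after repeated quantile normalisation, against -1.21 on the poly-A scale.

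Protein folding turned back. Of 13 probe sets for folding and quality control in the endoplasmic reticulum, 12 had risen by 6 h with a median of 1.67. By 10 h 7 of them fell and 2 rose, with a median of -0.30, and each of the 7 was a turn back (8.01% of all probe sets were). A fall after a called rise is a turn back by the rule, so that share of all probe sets is not a like comparison. Among risers, 7 of these 12 turned back, where 29.3% of all probe sets risen by 6 h did. CRT1b, a calreticulin that folds glycoproteins, stood at -0.61, -0.65 and -0.69 at 0 h, at 1.09, 1.48 and 1.28 at 6 h and at 0.33, 0.11 and 0.22 at 10 h. The 10 h arrays lay between those of the earlier times, and the change was -1.07 ± 0.10 after 1.93. ATCRT1, also a calreticulin, changed by -0.53 ± 0.14 after 2.45. The DnaJ-type co-chaperones ATERDJ2B and ATERDJ3B changed by -0.92 ± 0.09 and -0.78 ± 0.08 after 1.78 and 3.18. BZIP17, a membrane-bound transcription factor released under stress of this compartment, changed by -0.78 ± 0.09 after 0.81. The 2 risers, chosen here after their values were seen, were its relatives BZIP60 and BZIP28, by 0.26 and 0.29 (-0.85 and -0.82 on the poly-A scale, -0.25 and -0.12 after repeated quantile normalisation). The call of BZIP60 was lost without 10 h replicate 1, 2 or 3 or 6 h replicate 3, with limma adjusted p = 0.0514 to 0.119. It was also lost with only the 6 arrays at 6 h and 10 h (limma adjusted p = 0.051). The list's median was -0.36 after repeated quantile normalisation, against -1.42 on the poly-A scale.

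In the list of heat shock factors and chaperones, 2 of 4 probe sets turned back, with larger steps. SGT1A, a co-chaperone that stabilises resistance proteins, stood at 2.45, 2.33 and 2.41 at 6 h and at 0.13, -0.08 and 0.13 at 10 h. Its change of -2.33 ± 0.08 after 3.27 left it 0.93 above its level at 0 h. AT5G48570, listed with the synonym ROF2 and known as an immunophilin of the heat response, changed by -2.30 ± 0.15 after 5.62. The other 2 probe sets of the heat shock list were called in neither step by limma's test, and 0 had an unadjusted p under 0.05 in either. Among single genes with an opposite change of at least 1 log2 unit at each step, 99 rose and then fell and 33 fell and then rose. AT5G47330 and AT4G38560, which carry no name in the table used, were among the largest of the first kind, with -2.63 ± 0.11 after 3.72 and -2.41 ± 0.09 after 3.75.

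In RNA handling more of the early rises stalled than turned back. Of 24 probe sets for RNA polymerase, splicing and decay, 13 had risen by 6 h. Of these 8 stalled and 5 turned back, where 35.9% and 29.3% of all risers did. In the later step 2 of the 24 rose and 8 fell, with a median of -0.10. NRPA2, a core subunit of RNA polymerase I named after its values were seen, stalled at 0.09 ± 0.08 after 1.48 (-1.02 on the poly-A scale). AGO7, the Argonaute of the trans-acting siRNA pathway, stood at 0.53, 0.86 and 0.75 at 6 h and at -0.60, -0.55 and -0.83 at 10 h, a change of -1.37 ± 0.11 after 0.35. LSM3A, of the ring that binds spliceosomal and decaying RNA, changed by -0.91 ± 0.11 after 0.56. The list's median was -1.21 on the poly-A scale. Among 17 pentatricopeptide and organelle RNA factors 8 fell and 1 rose, where 24.5% and 17.8% of all probe sets did, with a median of -0.27. PPR336, a pentatricopeptide protein, turned back by -1.24 ± 0.13 after 1.65, and HCF101 changed by -1.47 ± 0.16 after -2.79. HCF101 is an iron-sulphur scaffold needed for photosystem I, and it is in this list only by the match of its name. SBTI1.1, a subtilisin-like protease, and BETA-VPE, a vacuolar processing enzyme, turned back by -1.33 ± 0.15 and -1.28 ± 0.10 after 0.77 and 0.32. Their 10 h arrays lay below those at 6 h in each case.

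A smaller set had fallen by 6 h and came back up. In the list for nitrogen, sulphur and phosphate (16 probe sets) these were 3 genes of sulphate assimilation. APS3, an ATP sulphurylase that activates sulphate, stood at 0.53, 0.00 and 0.51 at 0 h, at -0.88, -0.91 and -0.89 at 6 h and at 0.99, 0.92 and 0.56 at 10 h. The rise of 1.71 ± 0.15 after -1.24 brought each 10 h array above each 0 h array. SIR, the sulphite reductase of the same pathway, rose by 1.28 ± 0.10 after -0.75, and APS4 by 0.39 ± 0.09 after -0.40. APS3 stayed higher on the poly-A scale (0.60), where SIR was not called (0.17) and APS4 turned to -0.72. RALFL34, a secreted signalling peptide, stood at 0.48, 0.49 and 0.52 at 0 h, at -3.27, -2.79 and -3.34 at 6 h and at -0.20, -0.76 and -0.67 at 10 h. Its rise of 2.59 ± 0.16 left the 10 h level at -1.04 against 0 h. RR16, a type-A response regulator of cytokinin signalling, rose by 2.23 ± 0.19 after -1.25. ATSPS4F, a sucrose phosphate synthase, rose by 0.55 ± 0.13 after -2.92 on the deposited scale, but turned to -0.56 on the poly-A scale. GH3.17, an auxin-conjugating enzyme, and EXLB1, an expansin-like protein, rose by 0.72 ± 0.12 and 1.15 ± 0.11 after -0.38 and -0.93. Their values on the poly-A scale were -0.40 and 0.03, the second not called.

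Some of the largest changes began only after 6 h. AT4G16880 stood at 0.10, 0.00 and 0.12 at 6 h and at -3.61, -3.62 and -3.43 at 10 h, a change of -3.62 ± 0.09 (limma adjusted p = 7.5e-11) after -0.19, which had not been called. AT3G44450 changed by -3.38 ± 0.08, also with no called change before. In the other direction AT5G52390 rose by 4.96 ± 0.11 after 0.07. The largest rise of any single gene was that of AT2G22760, by 5.65 ± 0.16, after a rise of 0.81 by 6 h that was already called. These 4 genes have no name in the table used. Late rises with a name included the cytochrome P450 gene CYP71B22, by 2.11 ± 0.14, and TBL45, of a family that acetylates wall polysaccharides, by 2.37 ± 0.13. Cpn60beta2, a chaperonin of the chloroplast, fell late by 1.49 ± 0.16, and WSD1, a wax ester synthase, by 1.27 ± 0.23.

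Of 40 markers of leaf and root cell types, 6 had a probe set. The mesophyll marker RCA and the phloem transporter SWEET11 fell, by 1.87 ± 0.08 and 0.41 ± 0.10, the latter not called after repeated quantile normalisation (-0.01). PYK10, listed as a root marker, rose by 0.36 ± 0.09 (-0.75 on the poly-A scale). The stomatal lineage markers FMA, MUTE and SPCH changed by -0.01, 0.15 and 0.07, and 0 of the 3 were called by limma's test or had an unadjusted p under 0.05. On the poly-A scale these were -1.12, -0.97 and -1.04, against -1.10 for all probe sets. The part of cell makeup in the changes above was not tested.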

How the data were processed

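The series used 15 arrays of leaf RNA, 3 biological replicates in each of 5 groups as labelled, and the table deposited by the authors gives log2 values that were processed with RMA, per the submitters' processing notes. RMA corrects the background, normalises by quantiles and summarises probe sets. Each of the 22810 probe sets had a median of 0 over the arrays, so the values hold no signal over background and no filter on low values was applied. Precision is limited by how few arrays a group holds.

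Control probe sets (64) were not tested. Of the 22746 others, 13513 had 1 gene in the platform annotation, 503 several and 8730 none here, and 13436 of the first kind were found in the RefSeq gene table (assembly TAIR10.1). Probe sets of 1 gene were kept apart.

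One mean per group was fitted to the 9 Col-0 arrays with limma 3.58.1 in R 4.3.3, with Benjamini-Hochberg adjustment over all tested probe sets, two-sided, at 0.05. The rps2 arrays were left out because rps2 10 h replicate 3 widens a shared spread. The fit had 6 residual and 5.77 prior degrees of freedom, and the median standard error of the 10 h against 6 h change was 0.0971. The p-values measure the spread between these replicates. Stalling was read from the 95% interval.

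The members of 73 lists came from patterns on gene symbols and synonyms, and the 58 lists with at least 3 probe sets could be described. The comparison, the lists and the tests were chosen with earlier results of these data known. The named genes were the largest rises, falls, turns back, stalls and late changes and up to 4 members of each list with the largest change, together with members that turned back. Lists are described by counts and medians, without a set test.

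Alternatives were all 15 arrays, only 6 arrays, array weights, trended and robust variance, the replicate number as a block, centring on array medians or poly-A spike-ins, a repeated quantile normalisation, shared probe sets left out, stricter thresholds and each Col-0 array left out. Same-numbered arrays at 6 h and 10 h correlated at -0.0523, -0.173 and -0.00861 in their deviations from group means, so the numbers do not pair the samples. In simulated data for 10 h against 6 h with 22746 probe sets, 73% of 100 changes of 0.5 and 100% of 100 changes of 1 were recovered, with 17 false calls. No other probe set was changed there, while 42.3% were called in the real data. The recovery and the share of false calls may therefore differ in the real fit. A planned search of promoters for motifs was not run. PR1 and RPS2 transcripts are not analysed here.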

Additional observations from a re-analysis of the deposited data

How the results depend on the processing

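Directions and calls were recomputed under 21 other settings for 124 probe sets named above, 114 of them called, and for the counts of each course. Repeated fits with array weights, arrays centred on their medians, or trended variance kept each count within 1.5 times. With trended variance the call of EFR was gained. With only the 6 arrays at 6 h and 10 h, which give no courses, 9211 changed. There the call of BZIP60 was lost and that of EFR was gained. With the replicate number as a block 9314 probe sets changed, 3898 higher and 5416 lower, and no named call changed; the numbers do not pair the samples. Leaving out each of the 9 Col-0 arrays in turn (those at 0 h were added after the data were seen) gave 8454 to 9492 changed, 3533 to 3993 higher, 4921 to 5514 lower, 1763 to 2024 further rises, 1509 to 1814 rises turned back, 2127 to 2455 stalled rises, 1052 to 1326 late rises, 2684 to 2971 further falls, 600 to 721 falls turned back, 2920 to 3416 stalled falls and 648 to 867 late falls. The only named call lost was that of BZIP60, and that of EFR was gained without 0 h replicate 1 or 2 or 10 h replicate 1. With all 15 arrays, among them rps2 10 h replicate 3, 6801 changed (6744 of them called before), with 1295 further rises, 1151 rises turned back and 401 falls turned back, and 17 named calls were lost. Without that array 9833 changed and 1 named call, of BZIP60, was lost, while that of EFR was gained. An adjusted p of at most 0.01 left 430 falls turned back. On the poly-A scale 21874 changed, 663 higher and 21211 lower, with 457 further rises, 4847 rises turned back, 402 stalled rises, 135 late rises, 5757 further falls, 71 falls turned back, 95 stalled falls and 10607 late falls. The shift of all values by the spike-ins makes this difference, and what set the spike-ins apart was not tested. Repeated quantile normalisation gave 8313 changed (6912 called before), 1348 further rises, 758 late rises, 1442 further falls and 1607 falls turned back. It gives the Col-0 arrays an equal spread, where the deposited 10 h arrays were wider, and the part of this in the counts was not tested. Asking for a log2 change of at least 1 left 2282 changed, 1144 higher and 1138 lower, with 506 further rises, 195 rises turned back, 1206 stalled rises, 564 late rises, 658 further falls, 74 falls turned back, 1239 stalled falls and 285 late falls. Named genes changed sign after repeated quantile normalisation for CRR42 (0.39), CML38 (-0.054), AT3G01830 (-0.44), AT1G09750 (1.08), BZIP28 (-0.12) and BZIP60 (-0.25). On the poly-A scale the sign changed for ATSPS4F (-0.56), PUB24 (-0.26), AMY1 (-0.26), NRPA2 (-1.02), GH3.17 (-0.40), MYC3 (-0.51), ATG8E (-0.36), AT3G01830 (-0.92), GRX480 (-0.43), APS4 (-0.72), ELC (-0.47), petN (-0.41), BZIP28 (-0.82), BZIP60 (-0.85), MUTE (-0.97), SPCH (-1.04) and PYK10 (-0.75). A signal over background is not held in these values, so what dim probe sets could show is not known.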

Other observations

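Other lists are given as counts, beside 17.8% of all probe sets higher and 24.5% lower, with no test against those shares. Of 32 probe sets for wall expansion and remodelling, 15 had fallen by 6 h, and from 6 to 10 h 7 rose and 6 fell, with a median of 0.08 (-1.03 on the poly-A scale). Of 29 serine carboxypeptidase-like probe sets 8 fell and 1 rose, with a median of 0.01. Of 27 glutathione transferase and redox probe sets 6 rose and 6 fell. Of 23 cytochrome P450 probe sets 3 rose and 7 fell, with a median of -0.01. Of 16 probe sets for nitrogen, sulphur and phosphate 7 rose and 1 fell, with a median of 0.26 (-0.85 on the poly-A scale). Of 44 MADS-box probe sets of the AGAMOUS-like family, 38 did not pass the test. Of 16 probe sets for exocytosis 10 had risen by 6 h, and 4 of these stalled. From 6 to 10 h 3 of the 16 rose and 3 fell.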
